A study of Homo sapiens with 9 samples.

Results

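The genes examined were 10 factors of the replisome, the machine that copies DNA at a replication fork: CDC45, GINS1, GINS2, GINS3, MCM10, POLA1, PCNA, FEN1, RFC4 and CHAF1A. They were chosen by name, with earlier results of these data known. A gene counted as measured where a transcript cluster, the array's unit for 1 gene locus, carried its symbol and no other. Of the 10 genes, 7 had such a cluster, each exactly 1, out of 22011 clusters in all. POLA1, PCNA and FEN1 shared their clusters with another symbol and were not measured here. Each of the 7 was thus described by a single cluster, with no second cluster of the same gene to set beside it.

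Expression was measured on Affymetrix Human Exon 1.0 ST arrays in GM12878, an established human lymphoblastoid line of B-cell origin made with Epstein-Barr virus. Cells had no treatment at 0 h in 1 group and were exposed to 10 µM D,L-sulforaphane for 8 h or for 24 h in the others. Each of the 3 groups had 3 cultures, with 1 array per culture. Sulforaphane is an isothiocyanate from cruciferous vegetables. Cells were seeded at 900000 per ml in medium with 15% serum. The treatment protocol also names a DMSO vehicle, but no vehicle array at 8 h or 24 h was analysed here, so time in culture and sulforaphane cannot be told apart. All cultures came from 1 cell line, and the p-values measure only the spread between its cultures. Median signals of the 8 measured B-cell markers were 12.21, 12.19 and 12.30 on the log2 scale at 0, 8 and 24 h, against 6.61, 6.42 and 6.47 for 6 T-cell markers. Untreated replicate 2 stood apart on the first principal component, with a score of 54.4 where the other 8 arrays lay between -29.9 and 16.4.

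At each origin, CDC45 and the GINS complex join the ring of MCM2 to MCM7 to form the helicase that unwinds DNA, and MCM10 helps to activate it. Polymerase alpha with primase starts each strand, the clamp loader RFC places the sliding clamp PCNA, FEN1 trims Okazaki fragments, and CHAF1A, the large subunit of chromatin assembly factor 1, puts histones onto the new DNA. Transcripts of these genes are typically highest around S phase in cycling cells, and E2F transcription factors are known to drive many of them.

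The promoters of 4 of the 7 measured genes are shown in full, as examples with and without the short E2F-type motifs that were searched. Each of the 4 holds a match to CCAAT, which was also searched. They are the 250 bases before the annotated start, from RefSeq on GRCh38.p14, written 5′ to 3′ on the gene's strand with the matched letters in capitals. They lie at chr20:25407423-25407672 (plus strand) for GINS1, chr16:85688955-85689204 (minus) for GINS2, chr10:13161308-13161557 (plus) for MCM10 and chr19:4402390-4402639 (plus) for CHAF1A. The GINS1 window overlaps another annotated gene, LOC105372581.
GINS1: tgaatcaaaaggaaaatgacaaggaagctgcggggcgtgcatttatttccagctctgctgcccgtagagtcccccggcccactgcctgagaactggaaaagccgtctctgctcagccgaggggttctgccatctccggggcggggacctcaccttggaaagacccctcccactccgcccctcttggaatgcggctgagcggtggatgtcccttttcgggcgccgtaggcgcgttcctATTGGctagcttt
GINS2: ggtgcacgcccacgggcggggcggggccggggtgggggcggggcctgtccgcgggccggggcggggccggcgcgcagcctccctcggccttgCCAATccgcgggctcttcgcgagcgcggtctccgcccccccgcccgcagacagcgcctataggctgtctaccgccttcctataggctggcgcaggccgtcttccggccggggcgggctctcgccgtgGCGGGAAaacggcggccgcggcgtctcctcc
MCM10: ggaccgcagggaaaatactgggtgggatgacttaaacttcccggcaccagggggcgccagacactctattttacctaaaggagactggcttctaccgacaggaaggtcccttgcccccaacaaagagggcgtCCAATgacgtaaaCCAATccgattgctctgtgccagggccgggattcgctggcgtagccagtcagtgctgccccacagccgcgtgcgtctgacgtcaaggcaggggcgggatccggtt
CHAF1A: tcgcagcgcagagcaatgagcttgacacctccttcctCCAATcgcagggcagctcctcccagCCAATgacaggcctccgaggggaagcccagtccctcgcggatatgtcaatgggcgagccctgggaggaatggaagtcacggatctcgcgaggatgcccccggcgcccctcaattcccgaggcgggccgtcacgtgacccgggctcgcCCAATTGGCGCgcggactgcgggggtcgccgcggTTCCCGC

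For CDC45, which has 3 listed starts, the first start was used. The 250 bases before it overlap the annotated span of CDC45 itself. Only the 29 bases around the E2F-type match of CDC45 are shown (chr22:19479885-19479913, plus strand), followed by those of RFC4 (chr3:186806483-186806511, minus strand).
CDC45: ggagccgtgatTTGGCGGgagtcttgacc
RFC4: gcgtattcctaccggcgtaTTCCCGCcct

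The E2F-type letters searched on both strands were TTCGCGC (in 1.93% of promoters), TTGGCGC (2.63%), TTCCCGC (5.59%) and finally TTGCCGC (1.82%), beside the CCAAT box. Any of these 4 E2F-type motifs was found in 3 of the 7 windows, GINS2, RFC4 and CHAF1A, against 11% of 27305 promoters in the table. With TTGGCGG, added after the CDC45 sequence had been seen, the count was 4 of 7, against 13.4% of promoters. CCAAT was found in 5 of the 7, against 33%, and was absent from the windows of GINS3 and RFC4. In CHAF1A a CCAAT match overlaps TTGGCGC. The core letters of the cell-cycle element CHR, TTTGAA, were in 0 of the 7 windows and in 13.6% of promoters. These matches describe letters only.

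The first question was whether replisome transcripts had moved early in the exposure, at 8 h relative to 0 h. All 7 measured members had lower means at 8 h, by 0.35 to 0.78 on the log2 scale, and none passed an adjusted p of 0.05 in limma over all clusters. Over all clusters 0.595% passed in either direction, 0.327% lower and 0.268% higher. At an unadjusted p of 0.05, 7 of the 7 were lower, against 6.57% of all clusters. The median change of the 7 was -0.46, against -0.01 for all clusters. In 6 of the 7 every 8 h array lay below every untreated array, as was so for 8.55% of clusters, and in 0 of the 7 did every array lie above, against 9.06%. Leaving out 1 array brought in 1 member in 2 cases, CDC45 without 24 h replicate 1 (adjusted p = 0.045 in limma) and RFC4 without untreated replicate 2.

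The same was asked after 24 h. GINS1, CDC45 and GINS2 fell, by 1.70-fold, 1.66-fold and 1.58-fold, and these were the 3 of 7 members that passed. Over all clusters 1.62% passed, 0.791% lower and 0.831% higher. MCM10, CHAF1A, GINS3 and RFC4 were also lower in mean, by 0.72, 0.40, 0.33 and 0.18, and did not pass. The median change of the 7 was -0.66, against 0.02 over all clusters, and 6 of the 7 were lower at an unadjusted p of 0.05, against 6.45% of clusters, and 0 were higher, against 13.9%. In 6 of the 7 every 24 h array lay below every untreated array, against 8.75% of clusters with all arrays lower and 15.6% with all arrays higher. In bulk RNA such as this, fewer cells of a kind and less RNA per cell cannot be told apart.

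The 3 calls at 24 h depended on the arrays in the fit. Over 18 alternatives the changes ran from -0.86 to -0.63 for CDC45, -0.89 to -0.66 for GINS1 and -0.77 to -0.54 for GINS2. The number of all clusters passing was 21 to 768 with each array left out. None of the 3 passed without untreated replicate 3, without 8 h replicate 1, without any 1 of the 24 h arrays, or when only the 0 h and 24 h arrays were fitted. Without 8 h replicate 3 they were 2, CDC45 and GINS2. The number passing was 5 when each array was centred on its median, when arrays were quantile normalized again, or when the dimmest 25% of clusters were left out, with MCM10 and CHAF1A added. Over all clusters the number passing was 510, 560 and 517 in those fits, against 357 in the main fit. The 517 were out of 16508 clusters and the other counts out of 22011.

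**Figure D1:**
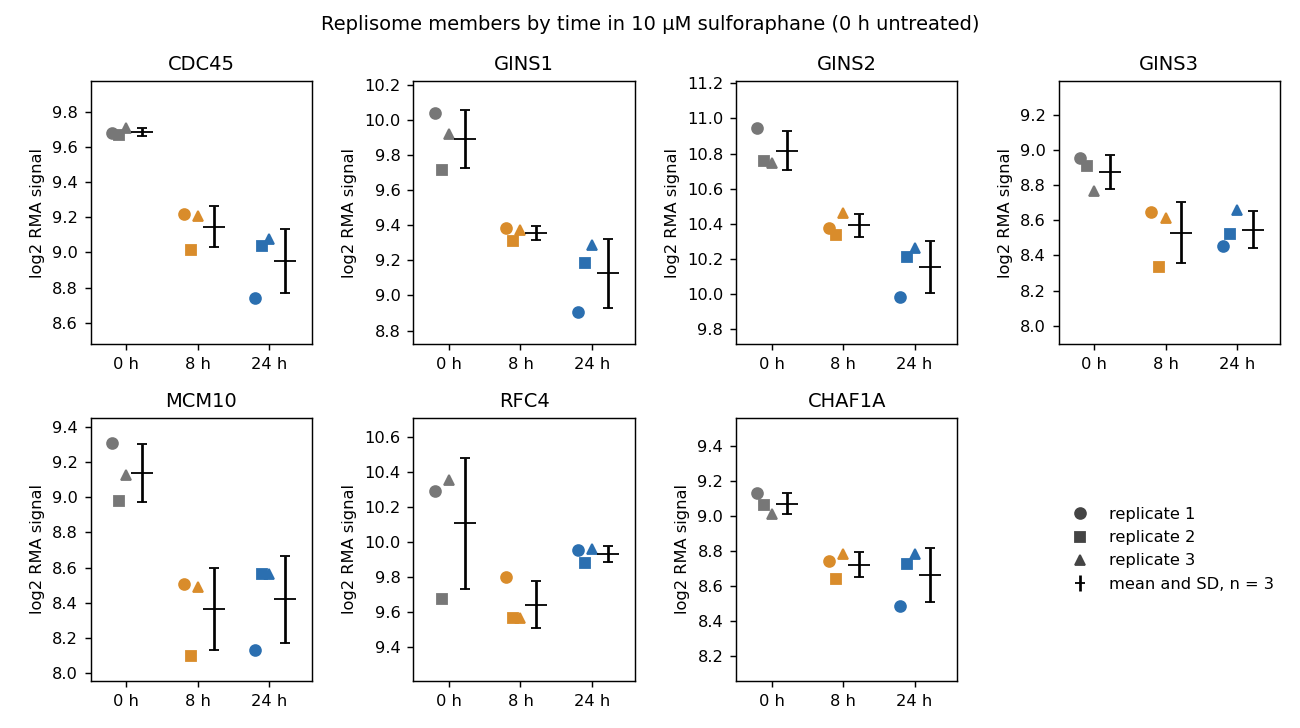
Log2 RMA signal of the 7 measured replisome genes on each array, by hours in 10 µM sulforaphane (0 h untreated). Symbols are replicates 1 to 3, and bars are the mean and SD of 3 arrays. Each vertical axis spans the same range of log2 signal. All 8 h and 24 h arrays lie below the untreated arrays except for RFC4, whose untreated replicate 2 lies at 9.67.

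CDC45 ties the MCM ring to GINS at the fork. Its cluster (3936913) had log2 signals of 9.68, 9.67 and 9.71 at 0 h, 9.22, 9.01 and 9.21 at 8 h, and 8.74, 9.03 and 9.08 at 24 h. The groups at 8 h and 24 h did not overlap the untreated one. The SD was 0.023, 0.12 and 0.18 at 0, 8 and 24 h. The difference from 0 h was -0.54 ± 0.10 (SE, n = 3 per group) at 8 h, with an adjusted p of 0.063 in limma. It was -0.73 ± 0.10 at 24 h, with an adjusted p of 0.021. From 8 h to 24 h it was -0.19, with a 95% confidence interval of -0.42 to 0.04, and 24 h replicates 2 and 3 overlapped the 8 h range.

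GINS is a ring-like complex of 4 small subunits, of which GINS1 and GINS2 fell at 24 h. GINS1 (cluster 3880827) had log2 signals of 10.04, 9.71 and 9.92 at 0 h, 9.38, 9.31 and 9.37 at 8 h, and 8.91, 9.18 and 9.29 at 24 h. Its 3 groups did not overlap at all, and untreated replicate 2 was the lowest untreated array. The difference from 0 h was -0.54 ± 0.12 at 8 h (adjusted p = 0.084 in limma) and -0.77 ± 0.12 at 24 h (adjusted p = 0.027). Its 95% confidence interval at 24 h ran from -1.03 to -0.50.

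GINS2 (cluster 3703112) had log2 signals of 10.94, 10.76 and 10.75 at 0 h, 10.38, 10.33 and 10.46 at 8 h, and 9.98, 10.21 and 10.26 at 24 h. The 3 groups again stood in separate ranges, in the order of time. The difference from 0 h was -0.42 ± 0.09 at 8 h (adjusted p = 0.085 in limma) and -0.66 ± 0.09 at 24 h (adjusted p = 0.022). From 8 h to 24 h the difference of GINS2 was -0.24, with a 95% confidence interval of -0.45 to -0.03 and an adjusted p of 0.41.

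GINS3 (cluster 3663228) had log2 signals of 8.96, 8.91 and 8.77 at 0 h, 8.65, 8.33 and 8.61 at 8 h, and 8.46, 8.53 and 8.66 at 24 h. Treated arrays were below the untreated ones, while the 8 h and 24 h arrays shared 1 range. The difference from 0 h was -0.35 ± 0.10 at 8 h and -0.33 ± 0.10 at 24 h, with adjusted p-values of 0.17 and 0.15 in limma. The intervals at 24 h were -0.56 to -0.09 for GINS3 and -0.88 to -0.45 for GINS2; the difference between subunits was not tested. The fourth subunit, GINS4, named here after its values were seen, differed by -0.26 ± 0.13 at 8 h and -0.22 ± 0.13 at 24 h (adjusted p = 0.40 and 0.35 in limma).

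MCM10 (cluster 3235789), which binds the helicase and polymerase alpha, had log2 signals of 9.31, 8.98 and 9.13 at 0 h, 8.51, 8.10 and 8.49 at 8 h, and 8.13, 8.56 and 8.56 at 24 h. Every treated array was below every untreated one. Replicate 2 at 8 h and replicate 1 at 24 h were the lowest of their groups. The means differed by -0.78 ± 0.16 at 8 h and -0.72 ± 0.16 at 24 h, with adjusted p-values of 0.077 and 0.072 in limma. These differences were close in size to those of GINS1 and CDC45 at 24 h, but the SD within groups was 0.218, against 0.151 for GINS1, 0.125 for CDC45 and a median of 0.132 over all clusters.

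RFC4 (cluster 2709486), a subunit of the clamp loader, had log2 signals of 10.29, 9.67 and 10.35 at 0 h, 9.80, 9.57 and 9.56 at 8 h, and 9.95, 9.88 and 9.96 at 24 h. Its untreated group was split: untreated replicate 2 lay within the 8 h range, and the other untreated arrays lay above every treated array. The difference from 0 h was -0.46 ± 0.17 at 8 h and -0.18 ± 0.17 at 24 h, with adjusted p-values of 0.26 and 0.54 in limma. Without untreated replicate 2 it was -0.68 ± 0.08 at 8 h, with an adjusted p of 0.020, and -0.39 ± 0.08 at 24 h, with an adjusted p of 0.084. RFC4 was the only member whose 24 h arrays all lay above its 8 h arrays, by 0.29 ± 0.17 (adjusted p = 0.62 in limma). This was so for 15.2% of clusters. The clamp loader subunits RFC1 and RFC2 did the same, by 0.32 ± 0.21 and 0.30 ± 0.13 (adjusted p = 0.65 and 0.48 in limma). In RFC5 the 8 h and 24 h arrays overlapped, and in RFC3 the 24 h arrays lay below. RFC1, RFC2 and RFC5, which are not members, are named here after their values were seen.

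CHAF1A (cluster 3817501) had log2 signals of 9.13, 9.06 and 9.01 at 0 h, 8.74, 8.64 and 8.78 at 8 h, and 8.49, 8.72 and 8.78 at 24 h. The treated arrays lay below the untreated ones, and 24 h replicate 1 lay below every 8 h array. The difference from 0 h was -0.35 ± 0.09 at 8 h and -0.40 ± 0.09 at 24 h, with adjusted p-values of 0.12 and 0.068 in limma. CHAF1A had the smallest spread within groups of the 7, with an SD of 0.105.

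**Figure D2:**
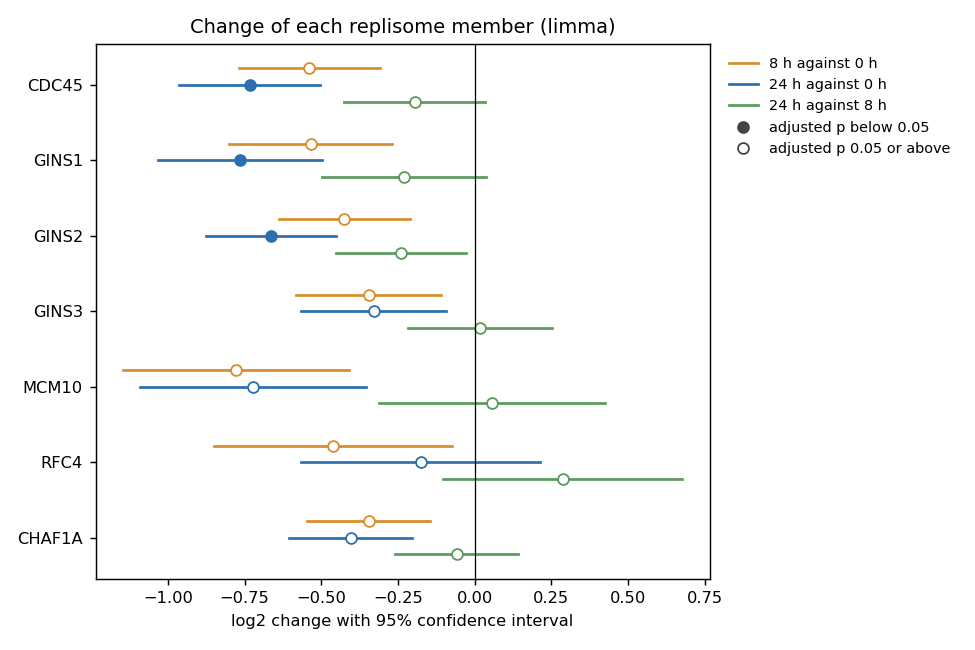
Log2 change of each member with its 95% confidence interval from limma. The 3 pairs of times share 1 axis in 3 colours, with the later time minus the earlier. Filled points passed an adjusted p of 0.05. For 24 h minus 0 h, GINS1, CDC45 and GINS2 are filled, and RFC4 is the 1 member whose interval reaches above 0.

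The comparison of 24 h with 8 h asked whether the members went on changing. None of the 7 passed, against 0.327% of all clusters in either direction, 0.227% lower and 0.1% higher. At an unadjusted p of 0.05, 1 of the 7 was lower, GINS2, and 0 were higher, against 3.45% and 6.91% of clusters. All 24 h arrays lay below all 8 h arrays in GINS1 and GINS2 and above them in RFC4, against 6.4% and 15.2% of clusters. The differences ran from -0.24 in GINS2 to 0.29 in RFC4, with a median of -0.06. CDC45, GINS1 and GINS2 were lower by about 0.2, with intervals that reached no further down than -0.50. For MCM10 the interval ran from -0.31 to 0.42, so a moderate change in either direction would not have been detectable here. The comparisons with 0 h share the untreated arrays, and their values for a gene are not independent of each other.

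The same arrays were low across most members. The lowest 24 h signal was that of replicate 1 in 6 of the 7 members, all but RFC4. At 8 h the lowest signal was that of replicate 2 in 6 of the 7. Over all clusters those arrays were the lowest of their groups in 37.6% and 48.5%. Averaged over the 7 members, each centred on its own mean over 9 arrays, the profile was 0.45, 0.23 and 0.35 at 0 h, -0.07, -0.27 and -0.10 at 8 h, and -0.36, -0.15 and -0.08 at 24 h. The 3 untreated arrays were the highest of the 9. The causes of the array differences were not tested.

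**Figure D3:**
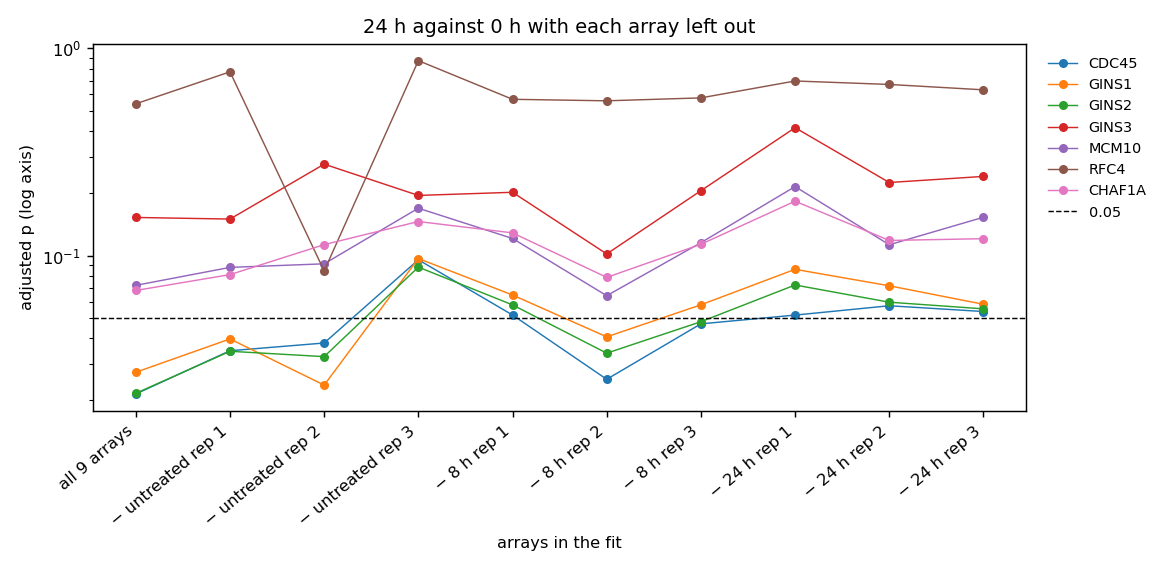
Adjusted p of each member for 24 h against 0 h (log axis), with all 9 arrays and with each array left out in turn. The dashed line marks 0.05. CDC45, GINS1 and GINS2 lie below it with all arrays and without untreated replicate 1, untreated replicate 2 or 8 h replicate 2, and RFC4 drops to 0.084 without untreated replicate 2.

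The members were set beside 44 other genes of the fork and of replication start, also listed with earlier results of these data known. Among them, 38 had a cluster of their own. Of these 38, 4 fell and 0 rose at 24 h, where 0.791% of all clusters passed lower and 0.831% higher. At an unadjusted p of 0.05, 22 of the 38 were lower at 24 h and 1 was higher, ASF1A, against 6.45% and 13.9% of clusters. At 8 h none passed, and 21 were lower and 0 higher at an unadjusted p of 0.05, against 6.57% and 8.55% of clusters. The median change of the 38 was -0.28 at 8 h and -0.34 at 24 h. The measured replisome members had lower medians, -0.46 and -0.66, and that difference was not tested. It did not hold against every part of the list. The helicase genes MCM2 to MCM6 and GINS4 had a median of -0.50 at 8 h, lower than that of the members, and -0.32 at 24 h. Untreated replicate 2 was the lowest untreated array in 30 of the 38 (78.9%), in 4 of the 7 members (57.1%) and in 44.9% of all clusters. Without it, 7 of the 38 passed at 8 h and 7 at 24 h. Over all clusters 291 passed at 8 h without that array, against 131 with it. At 24 h the number passing over all clusters was 21 to 768 with each array left out in turn, against 357 with all 9 arrays.

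The 4 that fell at 24 h came from different parts of the machinery. TICRR (cluster 3607698), which brings CDC45 to origins, fell by 0.97 ± 0.10 (adjusted p = 0.0086 in limma). Its signals were 9.44, 9.25 and 9.16 at 0 h, 9.11, 9.08 and 9.22 at 8 h, and 8.15, 8.41 and 8.37 at 24 h. The 0 h and 8 h arrays overlapped, with a difference of -0.14 ± 0.10, and all 24 h arrays lay below both. TICRR was the 1 gene of the 38 that also passed from 8 h to 24 h, with a difference of -0.83 ± 0.10 (adjusted p = 0.022). Without any 1 of the 8 h or 24 h arrays that adjusted p lay between 0.060 and 0.13.

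ASF1B (cluster 3852565), a histone H3 and H4 chaperone that hands histones to CHAF1A's complex, fell at 24 h by 0.98 ± 0.11 (adjusted p = 0.014 in limma). Its signals were 11.55, 11.61 and 11.53 at 0 h, 11.28, 10.98 and 11.22 at 8 h, and 10.37, 10.65 and 10.74 at 24 h, with no overlap between any of the 3 groups. RFC3 (cluster 3485074), which sits beside RFC4 in the clamp loader, fell at 24 h by 0.66 ± 0.10 (adjusted p = 0.030). Its signals were 10.84, 10.55 and 10.68 at 0 h, 10.36, 10.14 and 10.38 at 8 h, and 9.91, 10.05 and 10.14 at 24 h. Unlike RFC4, all its treated arrays lay below all untreated ones. POLE (cluster 3479181), the catalytic subunit of the leading-strand polymerase, fell at 24 h by 0.59 ± 0.10 (adjusted p = 0.036). Its signals were 9.66, 9.39 and 9.51 at 0 h, 9.43, 9.16 and 9.39 at 8 h, and 8.83, 8.96 and 9.01 at 24 h. The 0 h and 8 h arrays of POLE overlapped, and the 24 h arrays lay below both. Of these 4 calls, 1 was left without untreated replicate 3 or 24 h replicate 2, 2 without 8 h replicate 1 or 3 or 24 h replicate 1 or 3, and none when only the 0 h and 24 h arrays were fitted.

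By role, the 6 helicase genes measured (MCM2 to MCM6 and GINS4) differed by -0.67 to -0.25 at 8 h and by -0.54 to -0.15 at 24 h, and 0 of them passed at either time. The 3 fork protection genes, WDHD1, CLSPN and TIMELESS, differed by -0.55 to -0.39 at 24 h with 0 passing. The 4 subunits of polymerase delta differed by -0.44 to -0.04 at 24 h, and 0 passed. The 3 subunits of the alternative clamp loaders, CHTF18, DSCC1 and ATAD5, differed by -0.70 to -0.32 at 24 h with 0 passing. Of the 2 genes that finish Okazaki fragments, LIG1 and RNASEH2A, 0 passed, with differences at 24 h of -0.33 in LIG1 and -0.39 in RNASEH2A. Replication protein A, which coats single-stranded DNA, was represented by 2 subunits, and the differences at 24 h of -0.02 in RPA1 and 0.21 in RPA2 did not pass. At an unadjusted p of 0.05, 3 of 6 helicase genes and 3 of 3 fork protection genes were lower at 24 h. The count was 2 of 4 for polymerase delta, 3 of 3 for the alternative clamp loaders and 2 of 2 for Okazaki fragments. It was 0 of 2 for replication protein A. Polymerase alpha with primase had 2 of 3 and polymerase epsilon 1 of 4. The RFC subunits other than RFC4 had 2 of 4, and the origin firing genes 2 of 3. Differences at 24 h ran from -0.50 to 0.26 for polymerase alpha with primase and from -0.59 to -0.08 for polymerase epsilon. They ran from -0.66 to 0.24 for those RFC subunits and from -0.97 to 0.003 for origin firing. Over all clusters 6.45% were lower. Among 4 histone chaperones the differences at 24 h ran from -0.98 in ASF1B to 0.71 ± 0.42 in RBBP4. The signals of RBBP4 were 6.97, 5.05 and 6.39 at 0 h and 7.14, 6.64 and 6.77 at 24 h. Untreated replicate 2 of RBBP4 was thus far below the other arrays. ASF1A, the paralog of ASF1B, was higher at 24 h by 0.62 ± 0.21, with an unadjusted p of 0.019 and an adjusted p of 0.18 in limma. Its signals were 8.70, 8.00 and 8.44 at 0 h, 8.79, 8.73 and 8.79 at 8 h, and 9.36, 8.64 and 8.98 at 24 h, and 24 h replicate 2 lay within the untreated range. RBBP4 and ASF1A are named here after their values were seen.

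**Figure D4:**
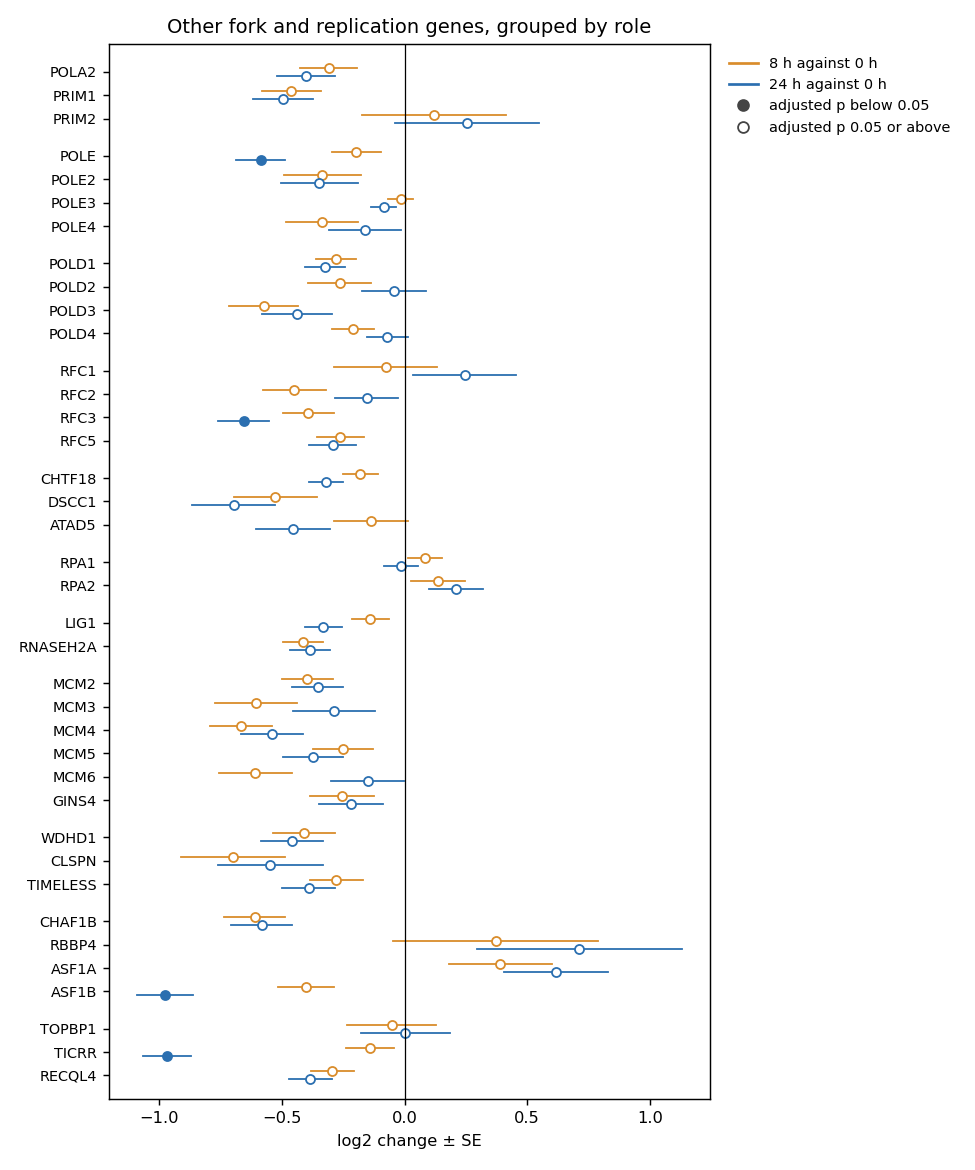
Log2 change ± SE of 38 other fork and replication genes at 8 h and at 24 h against 0 h, in blocks by role. Filled points passed an adjusted p of 0.05. POLE, RFC3, ASF1B and TICRR are filled at 24 h, none is filled at 8 h, and PRIM2, RBBP4, ASF1A and RPA2 lie above 0 at both times. In each of the genes above 0 at both times, untreated replicate 2 was the lowest untreated array, at 7.55 in PRIM2 and 5.05 in RBBP4.

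Likeness to the members was measured as the root mean square difference, over the 9 arrays, between a gene's centred log2 profile and the members' mean profile. Outside both lists it was smallest for TNFSF11, the cytokine RANKL (0.025), DNMT1, the maintenance DNA methyltransferase (0.048), IGF1, a growth factor (0.049), DUSP4, a MAP kinase phosphatase (0.059), and MTHFD1, an enzyme of one-carbon metabolism (0.061). The median over all clusters was 0.30. The members themselves lay between 0.084 for CHAF1A and 0.23 for RFC4. The mean log2 differences of DNMT1 were -0.49 at 8 h and -0.49 at 24 h, and those of TNFSF11 -0.46 and -0.52. These genes were picked for their profile, so the values are descriptive.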

How the data were processed

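The 9 arrays were deposited as log2 values made by the authors with gene-level RMA of core transcript clusters and sketch-quantile normalization in Affymetrix Expression Console, per the labels. Software versions, annotation and build were not given in the sources used here. Arrays give signal and not counts, and their number limits the precision. Clusters were named from the platform annotation: 14432 carried 1 symbol, 2408 several and 5171 none, and genes were named only from the first kind.

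A linear model in limma 3.58.1 (R 4.3.3) covered all 22011 clusters, with 1 mean per group over all 9 arrays and no covariate. P-values were two-sided and adjusted by Benjamini-Hochberg within a comparison, and a cluster passed below 0.05. Members and lists were chosen with earlier results of these data known. The rule for named genes covered all members, the called genes of the fork list and the 5 nearest profiles. The uncalled fork genes given by role, beside GINS3 or RFC4, or as lying above 0 in a figure, fall outside that rule. The fit was tested on simulated data. Alternatives were a replicate block, a filter on dim clusters, quantile normalization, median centring, trended and robust eBayes, array weights, fits of 2 groups, other thresholds and leaving out each array. Gene-by-gene array weights were added after seeing the data.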

Additional observations from a re-analysis of the deposited data

Results flagged for a closer look

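TICRR, the origin factor that brings in CDC45, is listed because its change by 24 h differed from its change by 8 h in the direct test of 24 h against 8 h (-0.83, adjusted p = 0.022 in limma). That call did not hold with only the 8 h and 24 h arrays (0.057), or without any 1 of the 8 h or 24 h arrays (0.060 to 0.13), while the size lay between -0.88 and -0.75 in all 18 alternatives.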

How the results depend on the processing

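At 8 h against 0 h the count of members passing was 0, and it was 2 without the dimmest 25% of clusters, 3 with quantile normalization, 2 with each array centred on its median, 7 with array weights, 5 with gene-by-gene array weights (chosen after seeing the data), 4 at an adjusted p below 0.1, and 0 to 1 with each array left out. For the other fork genes the main count of 0 became 3, 8, 2, 29, 12 and 3 under those settings, and 0 to 7 with each array left out. Over all clusters the main count of 131 became 302, 390, 288, 9603, 1703 and 513 under them, and 9 to 654 with each array left out. The fit without the dimmest 25% covered 16508 clusters and 37 other fork genes, against 22011 and 38 in the other fits. At 24 h against 0 h the 3 members became 5, 5, 5, 7, 5 and 5 under the same settings, 0 with only the 2 groups compared, 0 at an adjusted p below 0.01, and 0 to 3 with each array left out. Over all clusters the main count of 357 became 517, 560 and 510 under the first 3 of these settings. With each array left out it was 21 to 768. The 4 other fork genes became 14 with quantile normalization, 9 with centring, 32 with array weights, 17 with gene-by-gene weights, 0 with only the 2 groups, 1 below 0.01, 12 below 0.1, and 1 to 7 with each array left out. The array weights ran from 0.14 to 29.8 without convergence and called 9603 clusters at 8 h. At 24 h against 8 h no member passed under any alternative. The 1 other fork gene became 0 with the replicate block, 5 with either kind of weights and 0 with only the 2 groups. It became 0 below 0.01, and 0 to 2 with each array left out. Over all clusters the main count of 72 became 4 to 160 with each array left out. For both comparisons of 24 h, counts over all clusters with weights, 2 groups or other thresholds are not given here. The member and fork gene counts under those settings thus have no share over all clusters beside them. Not every same-numbered pair of replicates deviated together, with correlations of -0.14 to 0.39 over 9 pairs, against -0.42 to 0.13 over 18 differently numbered pairs, so the numbers were not taken to pair the samples. Between 24 h and untreated arrays the correlation was 0.39 for replicates 1, 0.38 for replicates 2 and 0.056 for replicates 3, and not every array correlated best with its own number. A replicate block gave 0, 3 and 0 members in the 3 comparisons, took TICRR at 24 h against 8 h to an adjusted p of 0.076, and gave 85, 378 and 44 clusters in place of 131, 357 and 72. Over all clusters at 24 h, 174 were lower and 183 higher, against 344 and 216 after quantile normalization and 306 and 204 after centring. Among the members and the 4 called fork genes, signs turned only at 24 h against 8 h, where no member passed. GINS3 was -0.042 with quantile normalization, -0.024 with centring, -0.0070 with array weights, -0.082 without 8 h replicate 2 and -0.040 without 24 h replicate 3. MCM10 was -0.079 without 8 h replicate 2 and -0.016 without 24 h replicate 2 or 3, and CHAF1A was 0.030 without 24 h replicate 1. With each array left out, these ran from -0.082 to 0.074 for GINS3, -0.079 to 0.20 for MCM10 and -0.12 to 0.030 for CHAF1A. The causes were not tested.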
